A study of Homo sapiens with 12 samples.

Results

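The HOX, SOX, PAX, forkhead (FOX) and T-box (TBX) factors are families of DNA-binding proteins named after the domain or gene cluster that defines them. Members were taken from the gene list by symbol alone: HOXA, HOXB, HOXC or HOXD with a number, SOX, PAX or TBX with a number, and FOX with a letter and a number. SOX9, SOX10 and PAX3, of which 2 are among the listed genes, were left out. This gave 60 of 12616 listed genes, made up of 28 HOX genes (6 HOXA, 9 HOXB, 8 HOXC and 5 HOXD), 19 forkhead, 7 SOX, 4 T-box and 2 PAX genes. They were followed in MeWo and SkMel28, human cutaneous melanoma lines, both carrying a short hairpin RNA that targets MITF and is switched on by doxycycline (Dox). MITF is the master transcription factor of melanocytes. MeWo control and SkMel28 control libraries came from hairpin-carrying cells without Dox (0 µg/ml), and MeWo Dox and SkMel28 Dox libraries from the same cells given 1 µg/ml Dox, all sampled after 8 days, with 3 libraries per group and 12 in all. No line was given Dox without the hairpin, so the drug and the hairpin cannot be told apart. The labels give EMEM as the medium of MeWo and RPMI as that of SkMel28, so line and medium cannot be told apart if the labels hold, although the study's methods name RPMI for nearly all of its human melanoma lines. Nothing in the labels says that the 3 libraries of a group came from separate thaws or days, and p-values measure the spread between these libraries, which may be technical.

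HOX genes lie in clusters, and cells of the body keep the combination that matches their position along the head-to-tail axis, which makes them markers of where a cell came from. SOX factors bend DNA through an HMG box and govern progenitor and neural crest states, PAX factors combine a paired domain with roles in organ formation, and T-box factors act in patterning and include repressors that block senescence. Forkhead factors include the FOXO proteins held out of the nucleus by insulin and AKT signalling, the cell cycle activator FOXM1 and FOXD3, which specifies the neural crest and restrains melanocyte formation.

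Levels are given as reads normalised to effective library size, per 1000000 reads, for each library in the order replicate 1, 2 and 3, or as mean ± SD over 3 libraries. Changes are differences in log2(value + 1), SE is limma's standard error of the change, and called means an adjusted p under 0.05 (Benjamini-Hochberg over all 12616 genes). A group was taken to be at the floor where each of its libraries held 3 reads or fewer, a value of at most 1.17, and folds against such a group are lower bounds. Libraries held 2568187 to 3714608 reads, so 1 read was worth 0.278 to 0.389. MITF itself fell in both lines (log2 −0.79, SE 0.11, adjusted p 6.49e-05 in MeWo and log2 −0.49, SE 0.11, adjusted p 0.00705 in SkMel28). All 7 melanocytic marker genes were listed, and their summed level was 12607 to 12891 in MeWo control, 6111 to 7576 in MeWo Dox, and in SkMel28 it was 10621 to 11800 without and 5983 to 6211 with Dox. None of the 3 endothelial markers was listed, against 2 of 5 fibroblast markers (DCN and LUM), 1 of 4 immune (CD68) and 1 of 4 keratinocyte markers (KRT10). Of the melanocytic markers 6 were called lower and 1, DCT, higher in MeWo with Dox (0.91), and 4 lower in SkMel28. LUM was called lower in MeWo (mean from 44.4 to 12.6, log2 −1.78, adjusted p 3.06e-05) and CD68 in SkMel28 (mean from 86.7 to 20.4, log2 −2.03, adjusted p 1.71e-05), and the part of these markers in the results was not tested. MeWo Dox replicate 1 stood apart from the other MeWo Dox libraries, with chi-square values per degree of freedom of 15.2 and 17.4 where all other replicate pairs had 1.54 to 5.38, and results that change without it are given both ways.

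With Dox, 13 of the 60 members were called in at least 1 line (21.7%, against 23.5% of all listed genes), and 12 of these 13 rose. In MeWo 10 members rose (16.7%, against 8.58% of all listed genes): SOX2, SOX4 and SOX8, the T-box gene TBX2, the forkhead genes FOXO1, FOXO4 and FOXD2, and the HOX genes HOXA3, HOXA4 and HOXC9. By limma FOXP1 alone was called lower there (1.67%, against 8.12%). On the recovered reads edgeR called 9 members higher and 2 lower in MeWo, FOXP1 and FOXN3, and DESeq2 9 higher and 1 lower. In SkMel28 6 members rose (10.0%, against 5.88%), namely SOX2, SOX4, FOXO1, FOXD3, FOXK1 and HOXA3. No member was called lower in SkMel28 with limma (background 5.04%), with 2 lower at an unadjusted p under 0.05, and edgeR and DESeq2 on the recovered reads also called 0. At a fold of at least 2, 6 members were called in MeWo (10.0%, against 6.21%) and 3 in SkMel28 (5.0%, against 4.28%). SOX2, SOX4, FOXO1 and HOXA3 rose in both lines by limma (6.67%, against 1.91% of all genes called higher in both). Of these, the SkMel28 call of FOXO1 and the MeWo call of HOXA3 were lost with edgeR and DESeq2. The median change over all 60 members was 0.07 in MeWo and 0.15 in SkMel28, against 0.00 for the median of all listed genes in each line. Scaling to spike-ins shifted the median gene by 0.22 in MeWo and −0.079 in SkMel28. With it 16 members were called higher in MeWo (26.7%, against 16.6% of all listed genes) and 0 lower (against 3.04%). In SkMel28 4 were called higher (6.67%, against 3.12%).

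**Figure D1:**
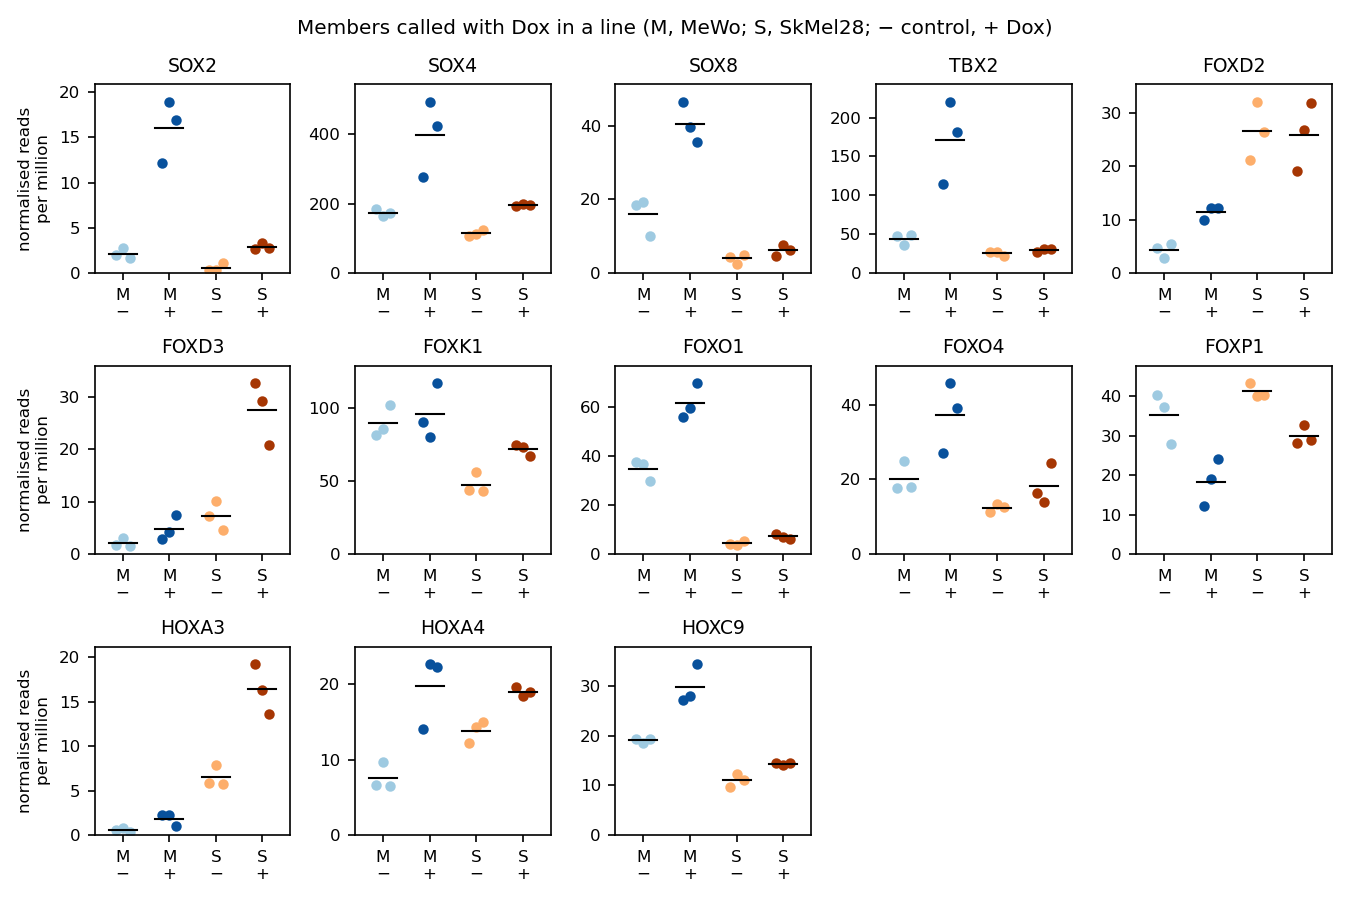
Levels of the 13 members called with Dox in at least 1 line, in normalised reads per 1000000, with a linear axis from 0 for each gene. Each point is a library, bars are means of 3 libraries, and groups run from MeWo control to SkMel28 Dox. SOX2 and TBX2 in MeWo and FOXD3 in SkMel28 show Dox libraries well clear of their controls.

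SOX2 and SOX4 had the best supported rises across the lines. SOX2 (chr3:181711925-181714436, + strand, hg38), a pluripotency and neural progenitor factor, stood at 2.02, 2.72 and 1.62 in MeWo control and at 12.1, 19 and 16.9 in MeWo Dox, a 7.56-fold higher mean (log2 2.44, SE 0.28, adjusted p 9.18e-06). In SkMel28 control it was at the floor, at 0.278, 0.317 and 1.15, and reached 2.67, 3.34 and 2.72 with Dox, at least 2.53-fold higher (log2 1.34, SE 0.28, adjusted p 0.00407). The Dox and control libraries did not overlap in either line, but SkMel28 Dox held only 9 to 10 reads per library. The SOX2 gene lies inside SOX2-OT on the same strand, and reads of the gene and its host cannot be told apart with certainty, as the counting rules are not given in the sources used here. SOX2-OT had 0 reads in all 6 SkMel28 libraries and all 3 MeWo controls, and stood at 2.23, 1.14 and 3.39 in MeWo Dox.

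SOX4, an SRY-box activator linked to survival and mesenchymal traits in carcinomas, was measured on more reads. It stood at 184, 165 and 172 in MeWo control and at 278, 494 and 423 in MeWo Dox (log2 1.15, SE 0.16, adjusted p 5.55e-05). SkMel28 gave 107, 113 and 123 without and 193, 199.5 and 196 with Dox (log2 0.77, SE 0.16, adjusted p 0.00324). Both sets of Dox libraries lay wholly above their controls. SOX8, which belongs to the same subgroup as SOX9 and SOX10 and acts in neural crest and glia, rose in MeWo from 18.4, 19.4 and 10.0 to 46.6, 39.8 and 35.6 (log2 1.34, SE 0.27, adjusted p 0.00241). In SkMel28 SOX8 went from 4.45, 2.54 and 4.98 to 4.75, 7.69 and 6.35 with overlapping groups (log2 0.56, SE 0.27, adjusted p 0.228), and the difference between the lines was not called (log2 0.78, SE 0.39, adjusted p 0.215). SOX5, SOX6, SOX12 and SOX13 were called in neither line, with changes of −0.39 to 0.31 in MeWo and −0.74 to 0.11 in SkMel28. Without MeWo Dox replicate 1, SOX12 was called higher in MeWo (0.57, adjusted p 0.00221).

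TBX2, a T-box repressor that holds off senescence in melanoma cells, had the largest change with Dox of the 4 T-box genes. It stood at 47.5, 36.5 and 48.6 in MeWo control and at 114, 221 and 181 in MeWo Dox, a 3.89-fold higher mean (log2 1.89, SE 0.20, adjusted p 3.44e-06). SkMel28 held 26.5, 27.3 and 22.2 without Dox and 27, 30.7 and 30.8 with it (log2 0.22, SE 0.20, adjusted p 0.572). The MeWo groups were far apart and the SkMel28 groups overlapped, and the changes themselves differed by 1.68 (SE 0.28, adjusted p 0.00166), a call held in all 22 alternatives. The opposite-strand gene TBX2-AS1 moved in the same way in MeWo, from 27.6, 22.1 and 23.0 to 44.7, 78.1 and 69.1 (log2 1.33, adjusted p 0.00199). In SkMel28 TBX2-AS1 had means of 5.24 and 3.56 (log2 −0.49, adjusted p 0.284). Counting strand is not stated, so reads of TBX2 and TBX2-AS1 cannot be told apart here. The other T-box genes TBX3, TBX18 and TBX19 were not called with Dox by limma, and TBX3, a close relative of TBX2, had a change of −0.76 in MeWo (adjusted p 0.0555) with no overlap between its libraries at 7.77, 6.6 and 8.1 and 3.19, 4.93 and 4.06. TBX3 was called there in 3 alternatives: upper-quartile scaling, the stricter filter, and without SkMel28 control replicate 3.

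The forkhead genes called in at least 1 line were FOXO1, FOXO4, FOXD2, FOXD3, FOXK1 and FOXP1. FOXO1, a FOXO factor of starvation and stress responses, rose in MeWo from 37.7, 36.9 and 29.8 to 55.9, 59.9 and 70.1 (log2 0.81, SE 0.19, adjusted p 0.00755). In SkMel28 it went from 3.9, 3.81 and 5.36 to 8.31, 7.02 and 6.35 (log2 0.62, SE 0.19, adjusted p 0.0469), again with no overlap. The SkMel28 call is a thin one: it was lost in 16 of 23 alternatives, with edgeR and DESeq2 among them and without any single library other than MeWo Dox replicates 1 and 2 and SkMel28 control replicate 3 (adjusted p 0.033 to 0.233). FOXO4, a second FOXO factor, rose in MeWo from 17.6, 24.9 and 17.8 to 27.1, 45.9 and 39 (log2 0.85, SE 0.23, adjusted p 0.0181), and this call did not hold in a fit of MeWo alone or without MeWo control replicate 1 or 3 or MeWo Dox replicate 2 or 3 (adjusted p up to 0.101). FOXO3 was not called in MeWo (log2 −0.62, SE 0.26, adjusted p 0.111), where its Dox libraries gave 56.2, 28.4 and 21.7 against 52.4, 55.2 and 45 in the controls. MeWo Dox replicate 1 lay just above all 3 controls and the other MeWo Dox libraries below them, and without replicate 1 FOXO3 was called lower (−1.0, adjusted p 0.000596). Members of the FOXO subfamily had changes of both signs in MeWo, 0.81 and 0.85 for FOXO1 and FOXO4 and −0.62 for FOXO3.

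FOXD2 and FOXD3, related forkhead factors of early mesoderm and neural crest, each rose in 1 line. FOXD2 stood at 4.61, 2.72 and 5.51 in MeWo control and 9.89, 12.1 and 12.2 in MeWo Dox (log2 1.27, SE 0.25, adjusted p 0.00181), while SkMel28 gave 21.2, 32 and 26.4 and 19, 26.7 and 31.7 (log2 −0.05, SE 0.25, adjusted p 0.94). The changes differed by 1.31 (SE 0.35, adjusted p 0.0324), a call lost in 8 of 22 alternatives (adjusted p 0.00309 to 0.0965), 7 of them leaving out 1 library: MeWo control 2, MeWo Dox 2 or 3, SkMel28 control 2 or 3, or SkMel28 Dox 1 or 2. FOXD3 rose in SkMel28 from 7.24, 10.2 and 4.6 to 32.7, 29.1 and 20.9, a 3.76-fold higher mean (log2 1.81, SE 0.32, adjusted p 0.00119). In MeWo it went from 1.73, 3.11 and 1.62 to 2.87, 4.17 and 7.45, with overlap and no call (log2 0.84, SE 0.32, adjusted p 0.0842), and it was called there without MeWo Dox replicate 1 (1.1, adjusted p 0.0162). The difference between the lines was not called for FOXD3 (log2 −0.97, SE 0.46, adjusted p 0.198). Its opposite-strand neighbour FOXD3-AS1 was not called in either line, at means of 10.8 and 17.0 in SkMel28 control and Dox (log2 0.61, adjusted p 0.252).

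FOXK1, a repressor of autophagy genes, rose in SkMel28 from 43.7, 56.2 and 42.9 to 74.8, 73.5 and 67.4 (log2 0.59, SE 0.16, adjusted p 0.0195) and had overlapping groups in MeWo at 81.5, 85.5 and 102 and 90.3, 80.3 and 118 (0.09). Its SkMel28 call was lost with spike-in scaling, without the mean-variance trend, and without SkMel28 control replicate 1 or 3 or SkMel28 Dox replicate 1 or 2 (adjusted p 0.0071 to 0.147). FOXP1, a forkhead repressor, was the single member called lower with Dox by limma, going in MeWo from 40.3, 37.3 and 27.9 to 12.1, 19 and 24 (log2 −0.93, SE 0.21, adjusted p 0.00477) without overlap. That call did not hold in a fit of MeWo alone or with spike-in scaling (adjusted p up to 0.112). In SkMel28 FOXP1 went from 43.4, 40.0 and 40.2 to 28.2, 32.8 and 29 (log2 −0.45, SE 0.21, adjusted p 0.197), also without overlap but not called. FOXM1, which drives mitotic genes, had means of 25.8 ± 0.898 and 15.9 ± 1.89 in SkMel28 (log2 −0.67, SE 0.29, adjusted p 0.159), and was called lower there without MeWo Dox replicate 1 (−0.67, adjusted p 0.0128). FOXN3 was not called by limma in MeWo (log2 −0.45, SE 0.16, adjusted p 0.0625), and was called lower in 5 alternatives, edgeR on the recovered reads (log2 −0.46, adjusted p 0.0462) among them. FOXO6 was not called in MeWo (log2 0.83, SE 0.36, adjusted p 0.125), and was called higher without MeWo Dox replicate 1 (1.13, adjusted p 0.0275) and with spike-in scaling.

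Among the 28 HOX genes, 3 rose in MeWo (HOXA3, HOXA4 and HOXC9) and 1 in SkMel28 (HOXA3), shares of 10.7% and 3.57% against 8.58% and 5.88% of all listed genes. HOXA4 stood at 6.62, 9.71 and 6.48 in MeWo control and 14, 22.7 and 22.4 in MeWo Dox (log2 1.26, SE 0.22, adjusted p 0.000662), and at 12.3, 14.3 and 14.9 and 19.6, 18.4 and 19 in SkMel28 (log2 0.44, SE 0.22, adjusted p 0.244). Its groups did not overlap in either line, and only the MeWo change was called. HOXA3 rose in SkMel28 from 5.85, 7.93 and 5.75 to 19.3, 16.4 and 13.6 (log2 1.21, SE 0.27, adjusted p 0.00673), a call lost only with a pseudocount of 0.1. In MeWo HOXA3 was at the floor in control, at 0.576, 0.777 and 0.324, and at 2.23, 2.27 and 1.02 with Dox, at least 1.58-fold higher (log2 0.84, SE 0.27, adjusted p 0.0413). That MeWo call rests on 3 to 7 reads per Dox library and was lost in 13 of 23 alternatives, edgeR and DESeq2 included, and without any single library but MeWo Dox 3, SkMel28 control 2 and SkMel28 Dox 3 (adjusted p 0.0181 to 0.171). The annotated HOXA3 gene spans HOXA4 and HOXA5 on the same strand, so reads of the 3 could be split between them. HOXA5 was not called (0.55 in MeWo and 0.51 in SkMel28), with MeWo Dox replicate 1 at 21.4 and the other MeWo Dox libraries at 7.96 and 8.47.

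HOXC9, a posterior HOX gene, rose in MeWo from 19.3, 18.6 and 19.4 to 27.1, 28 and 34.5 (log2 0.61, SE 0.17, adjusted p 0.0231). In SkMel28 it went from 9.74, 12.4 and 11.1 to 14.5, 14 and 14.5 (log2 0.35, SE 0.17, adjusted p 0.233), with no overlap and no call. The MeWo call did not hold in a fit of MeWo alone or without any 1 of the MeWo controls or MeWo Dox replicate 3 (adjusted p up to 0.115). The 9 HOXB, 8 HOXC and 5 HOXD genes gave median changes of −0.00, 0.03 and −0.11 in MeWo and 0.22, 0.07 and 0.09 in SkMel28. Close to the threshold in MeWo were HOXC13 (log2 1.11, SE 0.38, adjusted p 0.0524), at 4.9, 0.777 and 3.24 without and 7.98, 4.93 and 7.45 with Dox, and HOXB13 (log2 −0.87, SE 0.33, adjusted p 0.0812). The HOXC13 call was gained in 5 alternatives, among them the one without MeWo control replicate 1, and the HOXB13 call without MeWo Dox replicate 3.

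**Figure D2:**
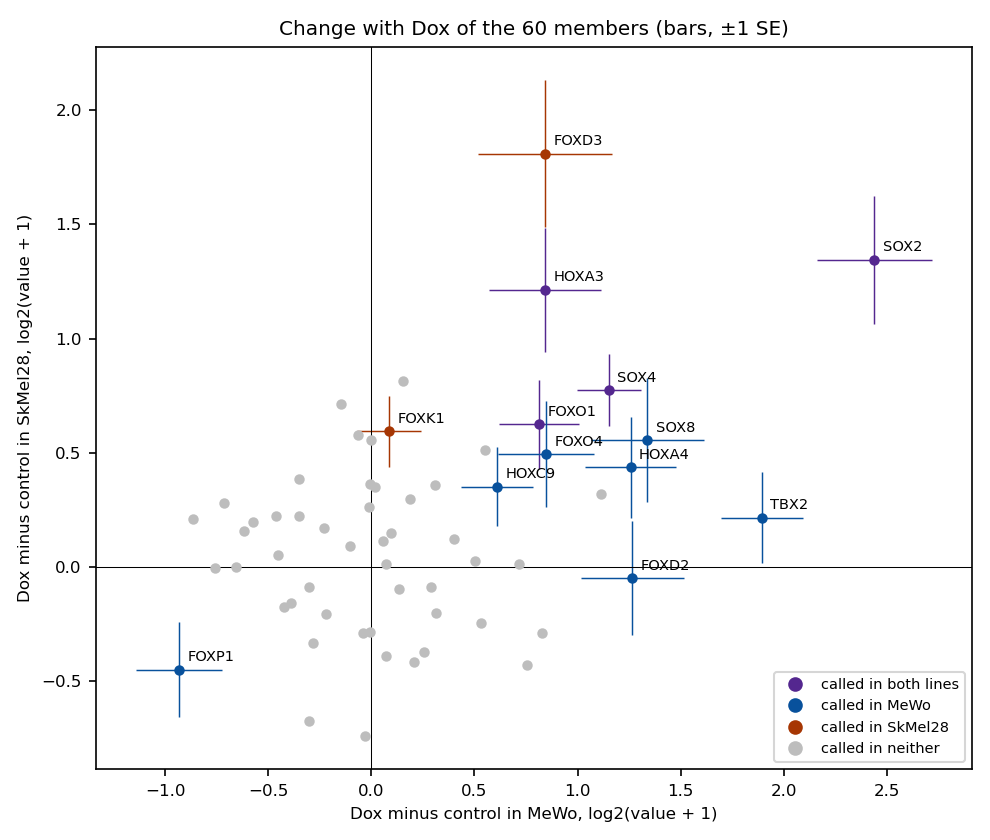
Change with Dox in MeWo (horizontal axis) against that in SkMel28 (vertical axis) for the 60 members, in log2(value + 1), with bars of ±1 SE from limma. Each point is a gene; SOX2 (2.44 and 1.34) and SOX4 (1.15 and 0.77) lie to the upper right, TBX2 (1.89 and 0.22) and FOXD2 (1.27 and −0.05) far right near 0 on the vertical axis, and FOXD3 (0.84 and 1.81) near the top.

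The difference between the Dox changes of the lines was called for 2 members, TBX2 and FOXD2, both with the larger rise in MeWo (3.33%, against 7.09% of all listed genes, made up of 3.71% with the change higher in MeWo than in SkMel28 and 3.38% with it lower). It was called in the other direction for 0 members by limma, edgeR and DESeq2, with 5, 3 and 1 at an unadjusted p under 0.05. DESeq2 gave no adjusted p here for 11 members with the higher and 7 with the lower change in MeWo, so it could not call these. Without MeWo Dox replicate 1 the difference was called by limma for 10 members (16.7%, against 24.7% of all genes). In MeWo 14 members were then called with Dox (23.3%, against 31.0%). The 8 members added to the difference were SOX2 (1.27), SOX4 (0.62), SOX12 (0.77), HOXA4 (1.04), HOXD4 (1.32), FOXM1 (0.83), FOXO6 (1.41) and FOXO3 (−1.16), of which only FOXO3 was the lower one in MeWo. With all libraries the same difference for SOX2 was 1.1 (SE 0.40, adjusted p 0.0968) and for SOX4 0.38 (SE 0.22, adjusted p 0.298).

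MITF and its relatives recognise the E-box CACGTG and the related hexamer CATGTG, read as CACATG on the other strand, so the upstream sequence of the responding members is shown with these letters marked. RefSeq (GRCh38.p14) held promoter entries for 38 of the 60 members, 61 in all, which are 60 different windows as HOXC4 and HOXC5 share 1, and the 250 bases before the annotated start were searched on both strands. The hexamer CACGTG stood in 8 of the 60 windows (13.3%), against 6.32% of 34943 different human promoter windows, and CATGTG in 8 (13.3%), against 9.45%. The members' windows had a median GC content of 61.2% and a median of 20 CpG dinucleotides, against 58.0% and 11 for all promoters. Of the members called with Dox, 8 have a single promoter entry: FOXD3, HOXA4 and FOXK1 hold CACGTG, SOX2 ends in CACATG, and SOX4, FOXD2, FOXO1 and FOXO4 hold neither. The 4 printed below were picked from these after the values were seen, to show each kind, and their makeup is not that of all 8. Capitals mark the hexamers, sequences run 5′ to 3′ on the gene's strand, and a match is a description of the letters only. The windows are chr1:63322317-63322566, + strand for FOXD3, chr7:27130758-27131007, − strand for HOXA4, chr3:181711675-181711924, + strand for SOX2 and chr6:21593501-21593750, + strand for SOX4.
FOXD3: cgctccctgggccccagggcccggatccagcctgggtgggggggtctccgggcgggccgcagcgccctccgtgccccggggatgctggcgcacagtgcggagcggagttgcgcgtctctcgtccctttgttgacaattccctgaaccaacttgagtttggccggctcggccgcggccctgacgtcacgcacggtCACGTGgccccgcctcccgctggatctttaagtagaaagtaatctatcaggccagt
HOXA4: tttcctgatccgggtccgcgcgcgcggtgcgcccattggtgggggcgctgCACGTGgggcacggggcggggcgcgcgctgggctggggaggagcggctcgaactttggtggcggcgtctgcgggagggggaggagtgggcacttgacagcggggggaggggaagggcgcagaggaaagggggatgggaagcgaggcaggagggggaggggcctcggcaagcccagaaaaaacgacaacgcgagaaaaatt
SOX2: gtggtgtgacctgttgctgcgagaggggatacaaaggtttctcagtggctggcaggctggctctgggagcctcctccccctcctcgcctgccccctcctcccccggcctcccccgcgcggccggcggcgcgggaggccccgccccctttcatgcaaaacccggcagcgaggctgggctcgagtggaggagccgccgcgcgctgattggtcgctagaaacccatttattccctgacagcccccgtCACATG
SOX4: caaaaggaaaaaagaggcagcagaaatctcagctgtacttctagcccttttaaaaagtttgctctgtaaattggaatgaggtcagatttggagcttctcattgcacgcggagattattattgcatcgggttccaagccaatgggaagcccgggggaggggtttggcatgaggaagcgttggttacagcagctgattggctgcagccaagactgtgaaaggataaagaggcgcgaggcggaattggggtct

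The lines differed at baseline in most members. Between the control libraries 45 of 60 members were called (75.0%, against 51.4% of all listed genes), 26 higher in SkMel28 (43.3%, against 26.6%) and 19 lower (31.7%, against 24.8%). At a fold of at least 2 the count was 29 (48.3%, against 26.4%). Between the Dox libraries, which share no library with the controls, 40 members were called (66.7%, against 53.6%), 23 higher in SkMel28 (38.3%, against 28.0%) and 17 lower (28.3%, against 25.6%), with 31 at a fold of at least 2 (51.7%, against 28.4%). Of the 60 members, 36 were called in the same direction in both comparisons (60%, against 36.5%), with 49 called in at least 1 of them (81.7%, against 67.9%). Both comparisons use the same lines and a single fit that pools the spread of all libraries, so they are not independent. By family the calls between controls fell on 17 of 28 HOX genes, 15 of 19 forkhead genes, 7 of 7 SOX genes, 4 of 4 T-box genes and 2 of 2 PAX genes. The HOXB cluster was the largest block, with all 9 listed members higher in SkMel28 in both comparisons. All listed features reach 1 in 3 or more libraries. The 9 members at the floor in both MeWo groups, HOXB2, HOXB3, HOXB4, HOXB5, HOXB6 and HOXB8 among them, were thus listed mainly through SkMel28. For these, and for the 3 at the floor in both SkMel28 groups (FOXP2, HOXA10 and HOXC11), the direction was largely set by being listed. All of them are among the members called in both comparisons, so the member shares above rest in part on listing. How many of all listed genes are of this kind was not counted. An excess of the members over all genes is therefore not claimed.

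**Figure D3:**
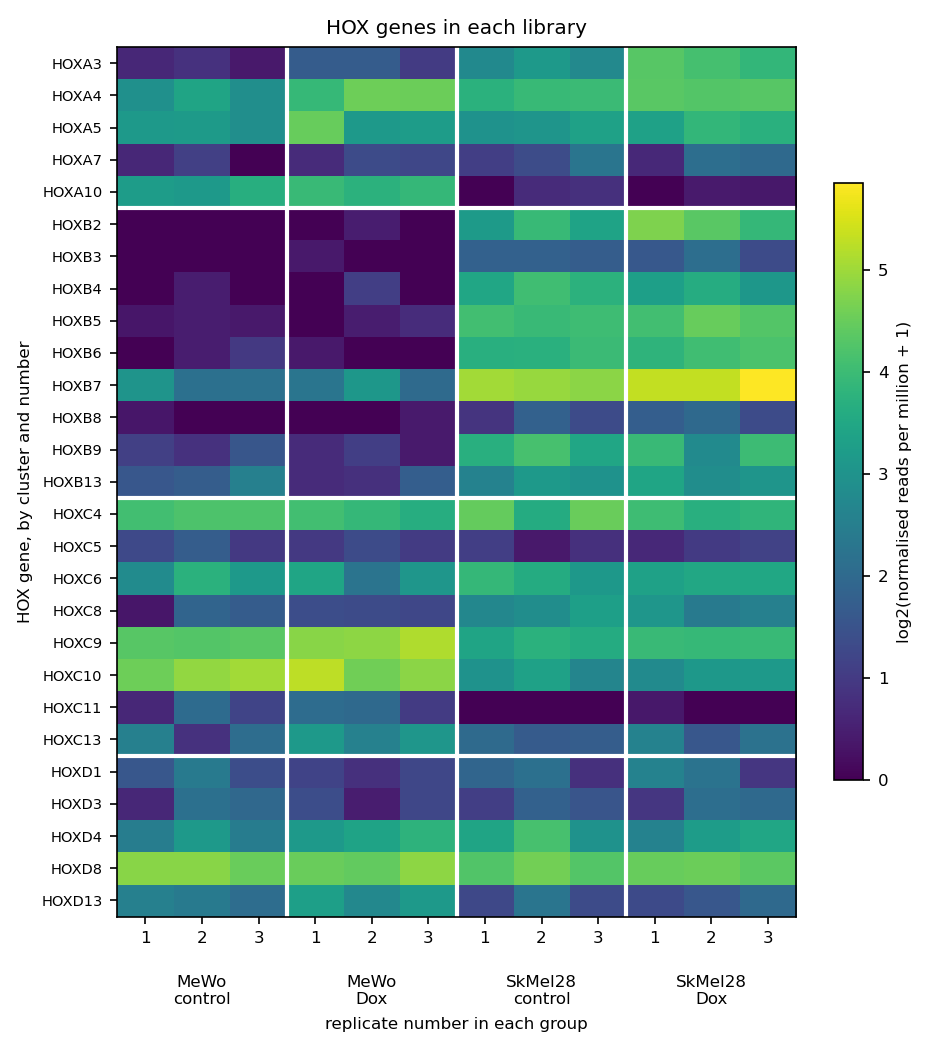
Levels of listed HOX genes in the 12 libraries, as log2(value + 1), with genes in cluster order and libraries grouped by line and Dox. HOXB2, HOXB4, HOXB5, HOXB6, HOXB7 and HOXB9 are brighter in each of the 6 SkMel28 libraries than in any MeWo library, and HOXB3 and HOXB8 stay dim in both lines, while HOXA10, HOXC10 and HOXC11 are brighter in MeWo.

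The summed level of the 9 HOXB genes was 10.1 ± 2.07 in MeWo control and 105 ± 9.77 in SkMel28 control, and 7.96 ± 2.99 and 132 ± 7.03 with Dox. HOXB2, HOXB3, HOXB4, HOXB5, HOXB6 and HOXB8 were at the floor in both MeWo groups, and HOXB9 also was in MeWo Dox. HOXB5, an anterior to mid-trunk gene, had 0.288, 0.389 and 0.324 in MeWo control and 15.9, 14.6 and 15.3 in SkMel28 control, at least 13.1-fold higher (log2 3.61, SE 0.25, adjusted p 2.4e-09). HOXB2, a hindbrain patterning gene, had 0 reads in the MeWo controls and 8.07, 14.3 and 9.58 in the SkMel28 controls, at least 9.13-fold higher (log2 3.51, SE 0.28, adjusted p 1.77e-08). HOXB4, which acts in hindbrain and blood progenitors, had 0, 0.389 and 0 against 10.0, 15.5 and 12.6, at least 10.9-fold (log2 3.6, SE 0.32, adjusted p 4.99e-08), and HOXB6 had 0, 0.389 and 0.972 against 12, 12.1 and 14.9, at least 11.1-fold (log2 3.32, SE 0.28, adjusted p 2.81e-08). Each of these genes was listed mainly through its SkMel28 libraries, which largely set the direction. Their p-values are thus not taken as support for a line difference.

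HOXB7, a trunk HOX gene known for growth-promoting activity in melanoma, was above the floor in both lines, at 7.2, 3.5 and 3.56 in MeWo control and 31.7, 29.8 and 27.6 in SkMel28 control, 6.25-fold higher (log2 2.47, SE 0.29, adjusted p 1.46e-06). HOXB9 gave 1.15, 0.777 and 1.94 against 12, 16.8 and 9.96 (log2 2.6, SE 0.34, adjusted p 5.22e-06). HOXB3 had 0 reads in the MeWo controls and 2.51, 2.54 and 2.3 in SkMel28 (log2 1.79, SE 0.27, adjusted p 2.82e-05), and HOXB8 had 0.288, 0 and 0 and 0.835, 2.54 and 1.53 (log2 1.22, SE 0.30, adjusted p 0.00251), both resting on few reads. HOXB3 and HOXB8 were also listed mainly through SkMel28, which largely set their direction. HOXB13, the posterior end of the cluster and a prostate and hindgut factor, had 2.02, 2.33 and 4.86 in MeWo control and 5.01, 7.93 and 6.9 in SkMel28 control (log2 0.95, SE 0.33, adjusted p 0.0228). The HOXB13 call was lost with a pseudocount of 0.1 and without MeWo control replicate 1 or 2 or SkMel28 control replicate 2 or 3, while between the Dox libraries HOXB13 was called in every alternative (log2 2.03, SE 0.33, adjusted p 5.8e-05). With Dox, the fitted differences of the other 8 HOXB genes ran from 1.56 (HOXB3 and HOXB8) to 4.17 (HOXB2). In the annotation HOXB3 spans HOXB4, HOXB5 and HOXB6, and HOXB7 spans HOXB8 and HOXB9, on the same strand, so the split of reads between these neighbours is uncertain.

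HOXA10, HOXC9, HOXC10 and HOXC11 ran the other way, and the more posterior HOXC13 was not called. HOXA10, a posterior limb and uterus factor, stood at 8.35, 7.77 and 11.7 in MeWo control and was at the floor in SkMel28 control, at 0, 0.635 and 0.766, at least 8.06-fold lower (log2 −2.83, SE 0.28, adjusted p 2.03e-07). With Dox it was at 14.7, 12.5 and 13.9 and 0, 0.334 and 0.302, at least 13.7-fold lower (log2 −3.61, SE 0.28, adjusted p 9.08e-09). HOXC10 gave 22.5, 29.1 and 31.7 against 6.96, 9.2 and 5.36 (log2 −1.83, SE 0.23, adjusted p 4.74e-06), a 3.87-fold higher mean in MeWo. HOXC11, the next gene outward, had 0.576, 3.11 and 1.3 in MeWo control and 0 reads in the SkMel28 controls (log2 −1.3, SE 0.35, adjusted p 0.00529). Both HOXA10 and HOXC11 were listed mainly through MeWo, which largely set their direction. HOXC9 was also lower in SkMel28 (log2 −0.74, SE 0.17, adjusted p 0.00179), while HOXC8 was higher, at 0.288, 2.72 and 2.27 and 5.57, 6.35 and 8.81 (log2 1.64, SE 0.35, adjusted p 0.000782). HOXC4, HOXC5 and HOXC6, like HOXC13, were not called between the lines in either comparison.

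HOXA3 was higher in SkMel28 control, with 6.51 on average against the floor in MeWo, at least 5.58-fold (log2 2.27, SE 0.27, adjusted p 2.08e-06), and with Dox it was 8.92-fold higher (log2 2.64, SE 0.27, adjusted p 3.16e-07). HOXA4 was higher in SkMel28 control (log2 0.80, SE 0.22, adjusted p 0.00566) and not called between the Dox libraries (log2 −0.02, SE 0.22, adjusted p 0.948), where the groups overlapped. HOXA5 and HOXA7 were called in neither line comparison. In the HOXD cluster, HOXD4 was called between the controls at 4.61, 7.77 and 4.53 and 9.74, 16.8 and 6.9 with overlapping groups (log2 0.82, SE 0.32, adjusted p 0.0379), a call lost without MeWo control replicate 1 or 3 or SkMel28 control replicate 1 or 2. HOXD13, the digit patterning gene, was lower in SkMel28 with Dox, at 8.94, 5.69 and 7.79 in MeWo Dox and 1.48, 2.01 and 3.02 in SkMel28 Dox (log2 −1.43, SE 0.31, adjusted p 0.000837), and was not called between the controls (log2 −0.73, SE 0.31, adjusted p 0.0576). HOXD1, HOXD3 and HOXD8 were called in neither, and HOXD8, the best covered of them, had 25.3 ± 3.14 and 20.0 ± 3.03.

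Outside the HOX clusters, SOX13, a SOXD factor, was higher in SkMel28, at 17, 11.7 and 9.72 in MeWo control and 61.8, 55.8 and 52.5 in SkMel28 control (log2 2.1, SE 0.19, adjusted p 7.49e-08). SOX6 and SOX5, of the same subgroup, were also higher in SkMel28 control (0.98 and 1.24), with SOX5 at 1.15, 0.777 and 0.324 and 5.29, 2.22 and 2.3 and its call lost with a pseudocount of 0.1 and without SkMel28 control replicate 1. SOX8 was lower in SkMel28 in the controls (log2 −1.75, SE 0.27, adjusted p 4e-05) and with Dox (−2.53). SOX2 was lower in SkMel28 as well (log2 −1.01, SE 0.28, adjusted p 0.00613 in the controls and log2 −2.1, SE 0.28, adjusted p 6.83e-06 with Dox), as was SOX4 (−0.60 and −0.98). The SOX4 call between controls was lost with spike-in scaling, and SOX12, higher in SkMel28 control (0.45), lost its call in 10 alternatives.

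Of the forkhead genes, 10 were lower and 5 higher in SkMel28 control. FOXP2, a forkhead factor of neural circuits, stood at 6.62, 13.2 and 5.51 in MeWo control and had 0 reads in all 6 SkMel28 libraries. It was at least 7.35-fold lower in SkMel28 control (log2 −3.15, SE 0.29, adjusted p 8.56e-08), but was listed through MeWo alone, which set this direction. FOXO1 was 7.99-fold lower in SkMel28 control (log2 −2.75, SE 0.19, adjusted p 2.7e-09) and 8.57-fold lower with Dox (log2 −2.94, SE 0.19, adjusted p 1.16e-09), the largest fitted difference of any forkhead gene between the Dox libraries. FOXF2, a mesenchymal forkhead factor, had 5.18, 8.16 and 11.3 against 0.557, 1.27 and 0.383 (log2 −2.39, SE 0.35, adjusted p 2.27e-05). FOXD2 ran the other way, 6.21-fold higher in SkMel28 control (log2 2.4, SE 0.25, adjusted p 3.71e-07) and 2.26-fold higher with Dox (log2 1.09, SE 0.25, adjusted p 0.00135). FOXD3 was higher in SkMel28 too (1.38 and 2.34), while FOXC1 (−1.52), FOXN3 (−1.52), FOXD1 (−1.42) and FOXO3 (−1.22) were lower in the controls. FOXJ2 was called in no comparison.

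**Figure D4:**
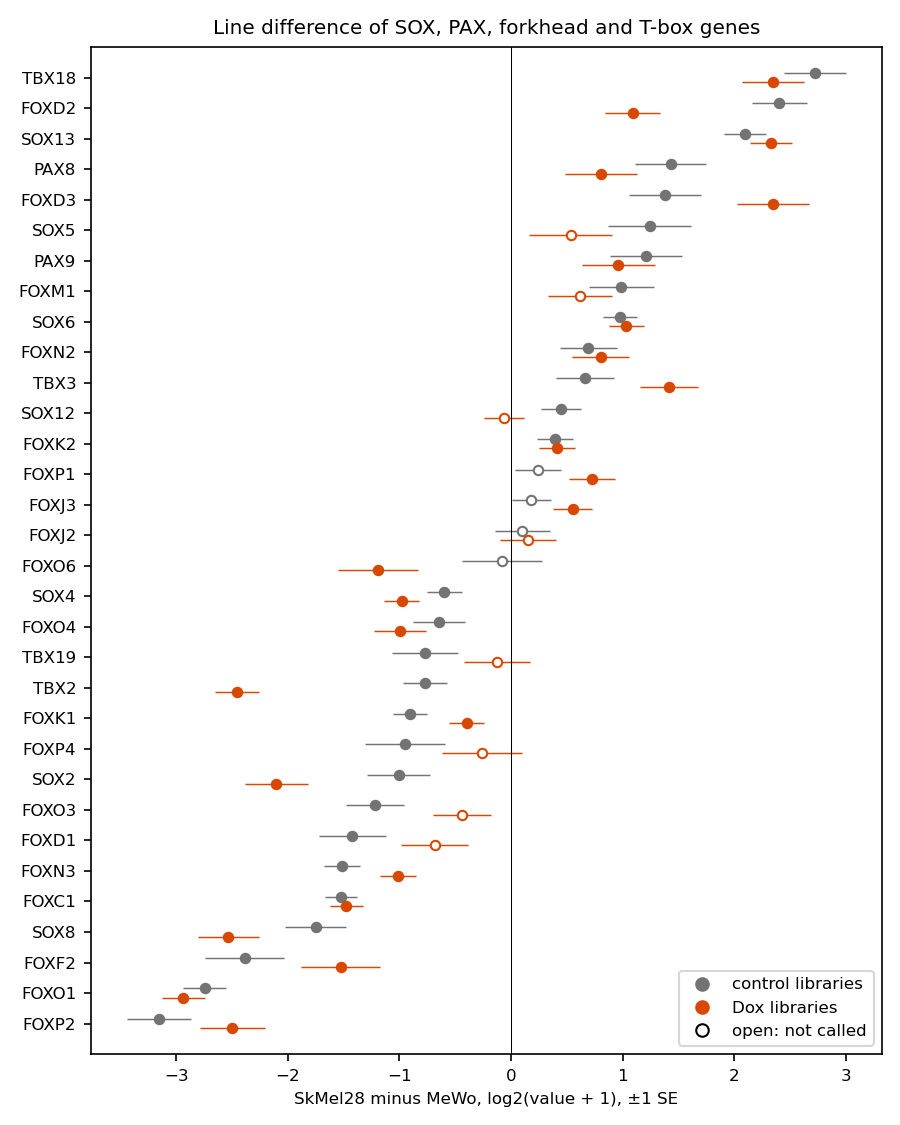
Difference between SkMel28 and MeWo for the 32 members outside the HOX clusters, in log2(value + 1), with bars of ±1 SE from limma. Each gene has a value from the control libraries and 1 from the Dox libraries, which share no library but come from a single fit. Open symbols were not called. SOX13 and TBX18 lie to the right and FOXP2 and FOXO1 to the left in both.

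TBX18, a T-box factor of mesenchyme and sinus node, was at the floor in MeWo at 0.288, 0 and 0 and reached 7.8, 6.03 and 4.98 in SkMel28 control. The mean there was at least 5.38-fold higher (log2 2.72, SE 0.28, adjusted p 3.25e-07). TBX18 was listed mainly through SkMel28, which largely set this direction. TBX2 was lower in SkMel28 (log2 −0.77, SE 0.20, adjusted p 0.00339 in the controls), and the difference with Dox was −2.45. TBX3 had 7.77, 6.6 and 8.1 and 14.2, 16.5 and 8.05 in the controls with overlapping groups (log2 0.66, SE 0.26, adjusted p 0.0416), and its call was lost in 8 of 23 alternatives, while between the Dox libraries it was called throughout (1.42). TBX19, which drives pituitary corticotroph genes, was lower in SkMel28 control at 5.18, 6.22 and 6.8 and 2.78, 2.86 and 3.83 (log2 −0.77, SE 0.29, adjusted p 0.0374), a call lost in 7 of 23 alternatives. PAX8 and PAX9, factors of thyroid and kidney and of the pharyngeal pouches, were at the floor in both MeWo groups, and SkMel28 control held 3.34, 1.9 and 1.15 and 2.78, 2.22 and 1.15. Both were called between the controls (log2 1.43, SE 0.32, adjusted p 0.00127 and log2 1.21, SE 0.33, adjusted p 0.00504), on 3 to 12 and 3 to 10 reads per library. They too were listed mainly through SkMel28, which largely set the direction.

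Genes that work with these factors were counted from lists written by hand. Their counts with Dox stand beside 8.58% of all listed genes called higher and 8.12% lower in MeWo (16.7% in all), and 5.88% and 5.04% in SkMel28 (10.9% in all). Of 9 HOX cofactors of the TALE class, 8 were listed, and PBX2 rose in MeWo (mean from 37.2 to 97.9, log2 1.32, adjusted p 0.00033) and MEIS3 in SkMel28 (from 3.01 to 8.47, log2 1.24, adjusted p 0.01). Of 25 noncoding RNAs of the HOX clusters, 6 were listed: HAGLR, antisense in the HOXD cluster, fell in MeWo (mean from 9.0 to 4.48, log2 −0.88, adjusted p 0.00829) and HAGLROS in SkMel28 (from 5.55 to 2.33, log2 −1.06, adjusted p 0.0413), while HOXB-AS1 had 0 reads in MeWo control and was higher in SkMel28 control (log2 1.82). Polycomb and trithorax genes, which silence and activate HOX loci, were called in 7 of 38 in MeWo (18.4%; 5 higher, 2 lower) and 2 of 38 in SkMel28 (5.26%; both higher), shares near and under those of all genes, with DPY30 at −0.89 and CBX7 at 0.68 in MeWo and KMT2D at 0.74 in SkMel28. TLE corepressors partner forkhead and homeobox factors, and of 5 listed TLE4 (mean from 4.32 to 30.5, log2 2.59, adjusted p 3.75e-05) and TLE3 (0.70) rose in MeWo and TLE1 in SkMel28 (from 28 to 61.9, log2 1.12, adjusted p 5.59e-05).

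Retinoic acid sets HOX expression in the embryo, and 13 of 22 pathway genes were listed. The receptor gene RXRG rose in both lines (1.07 and 0.81), the synthesis gene ALDH1A3 in MeWo (mean from 2.36 to 10.1, log2 1.9, adjusted p 0.000229), and DHRS3 (from 2.51 to 15.9, log2 2.51, adjusted p 0.000381) and ALDH1A1 (1.08) in SkMel28. FOXO regulators and target genes were all listed: of 22, 3 rose (13.6%) and 6 fell (27.3%) in MeWo, and 7 rose (31.8%) and 2 fell (9.09%) in SkMel28. SGK1, a kinase that inhibits FOXO, fell in MeWo (−1.26), as did SIRT1 (−1.02). Also lower in MeWo were SOD2 (−0.92), BBC3 (−0.75), AKT2 (−0.37) and TRIB1 (−0.41), BBC3 and AKT2 fell in SkMel28 too (−0.59 and −0.71), and SESN3 rose in both lines (1.11 and 1.01). The target genes TXNIP (from 143 to 426, log2 1.57, adjusted p 2.5e-07), PIK3IP1 (1.34) and CITED2 (1.31) rose in SkMel28. FOXM1 partners and target genes fell where called, 2 of 20 in MeWo (10%) and 7 of 20 in SkMel28 (35%), with AURKB at −1.02 and −0.93 and CDC20 (−0.88), PLK1 (−0.82) and CCNB2 (−0.76) in SkMel28, and 14 of 20 (70%, against 26.6% of all listed genes) were higher in SkMel28 control than in MeWo control.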

How the data were processed

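RNA was measured by 3′ end sequencing (QuantSeq Forward) in 12 libraries. The deposited values are a normalised signal: the authors normalised reads per gene with edgeR, and the processing notes name FastQC 0.11.7, cutadapt 2.8, STAR 2.5.1b, edgeR and the build hg38. The counting tool, annotation and strand are not given in the sources used here. All values (100%) came out as whole reads when divided by the value of 1 read (tolerance 0.001), and these reads were used where a count test was run. The table lists 12683 features, 67 of them spike-ins, and all features reach 1 in 3 or more libraries, so lower genes were not analysed here. Bounds divide the observed mean of the higher group by the value of 3 reads in the lower group. They carry no interval for counting error or for the spread between libraries.

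Values were analysed as log2(value + 1), with a pseudocount of 1, in limma 3.58.1 (R 4.3.3; lmFit, contrasts.fit, eBayes, trended prior variance) over 12 libraries and 4 group means, two-sided, with Benjamini-Hochberg adjustment over the 12616 genes of each of 5 contrasts. Alternatives were edgeR 4.0.16 quasi-likelihood and DESeq2 1.42.0 on recovered reads, other scalings, pseudocounts, filters and variance models, a replicate block and leaving out each library. The fits were tested on simulated data. Loci are from GENCODE release 44, which held all 60 symbols. Of the members, 31 overlap another listed gene, 18 on the same strand. HOXA4, HOXC5, FOXP1 and FOXN3 have a 3′ end within 500 bases of that of another annotated gene on the same strand. The split of reads at the ends of these 4 is uncertain. Values in every library were given for members called with Dox or in the difference of Dox changes, for up to 4 members per family with the largest called difference between controls, and for HOX genes called between lines at a fold of at least 2. From each related list up to 4 called genes were named by size of change, and for the FOXO list further called genes, chosen after their values were seen. A few genes are counted but not reported individually here. The members and lists were chosen with earlier results of these data known.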

Additional observations from a re-analysis of the deposited data

Results flagged for a closer look

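TBX2 and FOXD2 are listed because their changes with Dox differed between the lines by a test of the difference itself (limma interaction term). For TBX2 the MeWo change exceeded the SkMel28 change by a log2 difference of 1.68 (SE 0.28, adjusted p 0.00166), with changes of 1.89 and 0.22. For FOXD2 it did so by 1.31 (SE 0.35, adjusted p 0.0324), with changes of 1.27 and −0.05. Without MeWo Dox replicate 1 the differences were 1.95 and 1.41.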

How the results depend on the processing

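Of the calls in the 5 contrasts, those that held in every alternative other than the 2-fold limit were 7 of 11 with Dox in MeWo (FOXO1, FOXD2, HOXA4, SOX2, SOX4, SOX8 and TBX2), 3 of 6 in SkMel28 (FOXD3, SOX2 and SOX4), 1 of 2 for the difference of Dox changes (TBX2), 34 of 45 between controls and 32 of 40 between Dox libraries. No called value changed sign. With a fold of at least 2 required, the counts were 6 members in MeWo, 3 in SkMel28 and 29 between controls. For the difference of Dox changes, 6 members were called with spike-in scaling, 4 with a pseudocount of 5 and 1 without the mean-variance trend, in place of 2. Leaving out 1 library gave 8 to 14 members in MeWo, 4 to 7 in SkMel28, 1 to 10 for the difference of Dox changes, 38 to 46 between controls and 36 to 40 between Dox libraries. The 10 came without MeWo Dox replicate 1, and 1 came without MeWo control 2, MeWo Dox 2 or 3, SkMel28 control 2 or 3, or SkMel28 Dox 1 or 2. The cause of these shifts was not tested. Over all genes, leaving out MeWo Dox replicate 1 moved the count in MeWo from 2107 to 3913.

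Replicate numbers did not pair the libraries: deviations of same-numbered libraries correlated at −0.305 to 0.399 across genes, and 4 of 18 pairs exceeded 0.1. With a replicate block the counts were 12 in MeWo, 5 in SkMel28, 2 for the difference of Dox changes, 44 between controls and 39 between Dox libraries. Depth limits the lowest members: with 1 read worth 0.278 to 0.389, 9 members were at the floor both with and without Dox in MeWo and 3 in SkMel28, and no change with Dox was detectable for them at this depth.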

Other observations

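Homeobox genes outside the HOX clusters were counted in the same way, and 46 of 89 were listed. In MeWo 1 rose and 4 fell with Dox (10.9% called, against 16.7% of all listed genes), and in SkMel28 1 rose and 1 fell (4.35%, against 10.9%). IRX3, an Iroquois factor, fell in MeWo (mean from 233 to 101, log2 −1.2, adjusted p 6.49e-06). The IRX3 changes of the lines differed by −1.08. HLX also fell in MeWo (mean from 12.4 to 5.68, log2 −0.99, adjusted p 0.0331), as did LHX6 to the floor (−1.04), and NKX3-2 rose in SkMel28 from the floor (1.26). Between the control libraries 12 were higher in SkMel28 (26.1%, against 26.6% of all listed genes) and 13 lower (28.3%, against 24.8%). These shares were near those of all genes. Among the higher ones, EMX2, a forebrain and urogenital factor, was at the floor in MeWo and at 26.0 in SkMel28, at least 22.3-fold higher. Among the lower ones were IRX2 (from 60.7 to 2.95, log2 −4.01, adjusted p 6.34e-09), IRX1 (from 29.9 to 1.6, log2 −3.56, adjusted p 4.64e-09) and PITX1 (−3.59, with 0 reads in SkMel28 control). Of 4 T-box and SRY-box relatives named outside the symbol rule, 2 were listed, and EOMES fell in SkMel28 (mean from 8.03 to 2.08, log2 −1.52, adjusted p 0.00362).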
